A study of Homo sapiens with 10 samples.

Results

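The genes followed here were 10, namely the inhibitor of apoptosis genes BIRC2, BIRC3 and XIAP, the adaptor gene TRAF1, the NF-κB subunit genes NFKB2 and RELB, the NF-κB inhibitor genes NFKBIA and TNFAIP3, and the chemokine genes CXCL8 and CXCL1. They were taken by symbol, and they were chosen by their measured values in the contrast of A549/DDP with A549 cells, so their difference between the lines is given as a description with no test. All 10 were found among the 58037 gene identifiers of the deposited tables, and all 10 were among the 16406 genes that passed the filter on low counts. A549 is a human lung adenocarcinoma line. A549/DDP is a line of A549 cells resistant to cisplatin (DDP), a platinum drug that damages DNA. Per the study's methods the A549 cells were purchased and the A549/DDP cells were a gift from another laboratory, and both grew in RPMI medium with serum and antibiotics. The sources used here do not say whether cisplatin was in the medium at harvest, and with 1 line of each kind, resistance and the history of the line cannot be told apart. Poly(A) RNA of each line was sequenced as input in 2 libraries and, after pull-down with an antibody against N6-methyladenosine (m6A), in 2 m6A-seq libraries. Another pair of A549 inputs, called the second pair here because no experiment is named in their labels, brought the libraries to 10 and was used only for comparison.

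The inhibitor of apoptosis proteins carry BIR domains, and several of them bind caspases or ligate ubiquitin. XIAP blocks caspases directly, whereas the products of BIRC2 and BIRC3, cIAP1 and cIAP2, sit with TRAF proteins at TNF receptors, where they add ubiquitin to RIPK1 and promote the degradation of NIK, the kinase encoded by MAP3K14. NF-κB is a family of dimeric transcription factors. In the canonical pathway the inhibitor IκBα, product of NFKBIA, holds dimers in the cytoplasm until it is degraded, and in the non-canonical pathway NIK leads to the processing of the NFKB2 product, which pairs with RelB. BIRC3, TRAF1, NFKBIA, NFKB2, RELB, TNFAIP3, CXCL8 and CXCL1 are textbook NF-κB target genes, and NFKBIA and TNFAIP3 feed back on the pathway as inhibitors.

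NF-κB dimers bind the κB consensus, a motif of 10 bases. It was looked for by name on both strands of the RefSeq promoter windows (GRCh38.p14, 250 bases before to 50 after a start), because the genes are known as NF-κB targets. Of 27305 genes with a window, 3619 (13.3%) had at least 1 match, and 11.3% of the 35116 windows held one. A window was found for 9 of the 10 genes, with 1 to 3 windows each. Matches lay in 5 of these 9, namely BIRC3, NFKBIA, NFKB2, TNFAIP3 and CXCL1. The windows of BIRC2, XIAP, TRAF1 and CXCL8 held no match, which says only that the strict letters are not in these windows, and RELB is only named. The stretches around the matches are shown 5′ to 3′ on the strand of the gene, with the matching bases in capitals, since overlapping matches merge into 1 run.
BIRC3, chr11:102317275-102317368, plus strand: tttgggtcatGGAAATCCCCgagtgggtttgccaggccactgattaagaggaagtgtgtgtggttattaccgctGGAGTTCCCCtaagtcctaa
NFKB2, chr10:102394461-102394519, plus strand: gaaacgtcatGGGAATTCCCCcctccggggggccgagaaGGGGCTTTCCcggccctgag
NFKBIA, chr14:35404811-35404840, minus strand: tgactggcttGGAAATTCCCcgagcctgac
TNFAIP3, chr6:137867182-137867223, plus strand: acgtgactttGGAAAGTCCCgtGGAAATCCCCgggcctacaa
CXCL1, chr4:73869304-73869334, plus strand: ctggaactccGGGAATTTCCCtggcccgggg
In BIRC3 the matches began 199 and 135 bases before the start, and in TNFAIP3 they began 67 and 55 bases before it and were separated by a pair of bases. The NFKBIA match began 81 bases before the start. In CXCL1 overlapping matches on opposite strands began 79 and 78 bases before the start. NFKB2 had matches in 2 of its 3 windows, and the stretch shown is that of the upstream window. Beside these genes, 11 of 21 other NF-κB response genes with a window, 9 of 25 signalling genes of the pathway and 4 of 12 other IAP and apoptosis genes had a match. Motif matches are descriptions and not shown binding sites.

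The 4 inputs held 29225501 to 35286514 expected counts each. Values below are CPM, expected counts scaled to library size after TMM normalization, unless TPM is named, which is also scaled for transcript length. The libraries of a line are told apart by number only, so the spread between them may be technical. SD is the spread of a gene's own libraries, whereas SE comes from the edgeR fit, which estimates spread partly across genes. Epithelial markers were present in both lines (KRT8, KRT18, CDH1 and EPCAM in every library), with a summed level of 3684 and 7921 TPM in A549 and 14741 and 14736 TPM in A549/DDP, and KRT19 was at 0 in A549/DDP replicate 2. The part of this difference in the results below was not tested. The 9 markers of leukocytes, endothelium and fibroblasts summed to 5.11 to 16.9 TPM per library. CD3E was at 0 in all 4, whereas COL1A1 had 7.89 and 5.02 TPM in A549 and 14.69 and 1.85 TPM in A549/DDP. CD14 had 0.6 and 0.03 TPM in A549 and 1.46 and 4.86 TPM in A549/DDP. In bulk RNA, fewer cells of a kind and less RNA per cell cannot be told apart.

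The RNA of the 10 genes was lower in A549/DDP, which is a description only, since the genes were chosen on this contrast. Their log2 fold changes ran from -5.53 for RELB to -0.82 for XIAP, with a median of -3.25, beside a median of 0.00 over all genes tested. In edgeR's quasi-likelihood test, 14.9% of all genes passed at an adjusted p under 0.05, 8.00% lower and 6.85% higher in A549/DDP. All 10 genes were among the lower ones, which the choice of the genes on this contrast leaves without weight.

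**Figure D1:**
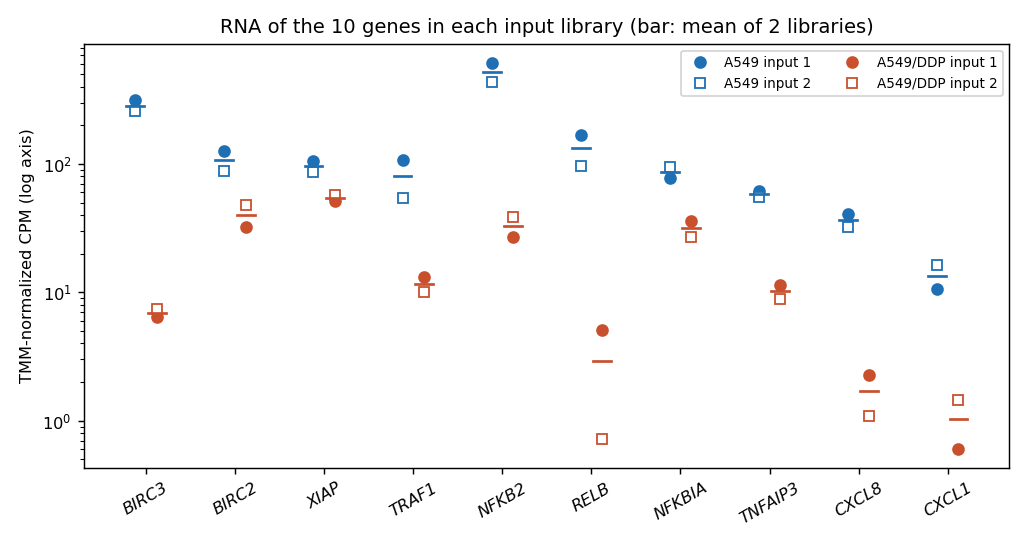
TMM-normalized CPM (log axis) of the 10 genes in each of the 4 input libraries, A549 in blue and A549/DDP in red, with a short line at the mean of each pair. The gap between the lines is widest for RELB and BIRC3 and narrowest for XIAP.

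Among the inhibitors of apoptosis, BIRC3 (ENSG00000023445.13, chromosome 11, 102317484 to 102339403, GRCh38.p14 as all gene positions) differed most. Its level was 315 and 256 CPM in the A549 libraries and 6.44 and 7.48 CPM in the A549/DDP libraries. Both pairs were tight, and the means of 285 ± 42.0 and 6.96 ± 0.734 (SD, n = 2) were 40.9-fold apart, a log2 fold change of -5.35 (SE 0.23). BIRC3 thus passed from above 95.9% of the tested genes in A549 to above 35.9% of them in A549/DDP.
BIRC2 (ENSG00000110330.8, chromosome 11, 102347214 to 102378670) lies 7810 bases from BIRC3 on the same strand. It had 127 and 88.4 CPM in A549 and 32.2 and 47.7 CPM in A549/DDP, a log2 fold change of -1.43 (SE 0.29). BIRC2 and BIRC3 are paralogs, and estimated counts could move reads between them. Their sum was 442 and 344 CPM in A549 and 38.6 and 55.2 CPM in A549/DDP, a log2 ratio of -3.07, which holds however the reads were split between them.
XIAP (ENSG00000101966.12, chromosome X, 123859708 to 123913972) showed the smallest difference of the 10. Its values were 105 and 86.9 CPM in A549 and 51.4 and 57.6 CPM in A549/DDP, and the log2 fold change was -0.82 (SE 0.20).
TRAF1 (ENSG00000056558.10, chromosome 9, 120902393 to 120929171), which bridges TRAF2 and the cIAPs at receptors, had 107 and 54.7 CPM in A549 and 13.1 and 10.0 CPM in A549/DDP. The A549 libraries were far from each other (SD 36.8 CPM), but both lay above A549/DDP, and the log2 fold change was -2.80 (SE 0.39).

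NFKB2 (ENSG00000077150.18, chromosome 10, 102394110 to 102402529) was the most abundant of the 10 genes in A549 per length, at 369 and 326 TPM. In CPM it had 608 and 433 in A549 and 27.1 and 38.9 in A549/DDP, a 15.8-fold difference (log2 fold change -3.98, SE 0.28). RELB (ENSG00000104856.13, chromosome 19, 45001464 to 45038192), the partner of the processed NFKB2 product, had 169 and 96.3 CPM in A549 but 5.09 and 0.717 CPM in A549/DDP. The A549/DDP libraries held 151 and 25 RELB counts and stood further apart in ratio than for any other of the genes, so its log2 fold change of -5.53 had the largest error (SE 0.88). Without A549/DDP replicate 1 it was -7.54.
NFKBIA (ENSG00000100906.10, chromosome 14, 35401513 to 35404749) had 78.3 and 94.2 CPM in A549 and 36.1 and 27.1 CPM in A549/DDP, a log2 fold change of -1.45 (SE 0.24). TNFAIP3 (ENSG00000118503.14, chromosome 6, 137866349 to 137883312), which encodes the ubiquitin-editing inhibitor A20, had 61.7 and 55.1 CPM in A549 and 11.5 and 8.94 CPM in A549/DDP, a log2 fold change of -2.51 (SE 0.28). Both inhibitors were thus lower in A549/DDP together with the subunit genes, NFKBIA by 2.73-fold and TNFAIP3 by 5.71-fold.
CXCL8 (ENSG00000169429.10, chromosome 4, 73740569 to 73743716), the neutrophil chemokine interleukin-8, had 41.0 and 32.0 CPM in A549 and 2.29 and 1.09 CPM in A549/DDP, a log2 fold change of -4.43 (SE 0.51). CXCL1 (ENSG00000163739.4, chromosome 4, 73869393 to 73871308), a chemokine that acts on the same receptor family, had 10.6 and 16.4 CPM in A549 and 0.607 and 1.46 CPM in A549/DDP, a log2 fold change of -3.70 (SE 0.76). It was the scarcest of the 10, with 18 and 51 counts in the A549/DDP libraries. CXCL1, CXCL2 and CXCL3 are near-identical in parts and may share reads. Their sum was 36.3 and 53.5 CPM in A549 and 6.51 and 9.66 CPM in A549/DDP, a log2 ratio of -2.47.

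Per length, the order of the genes changed between the lines. In A549 the means fell from NFKB2 at 347 ± 30.3 TPM (SD, n = 2 here and below) over NFKBIA at 112 ± 45.0, RELB at 104 ± 41.1 and BIRC3 at 90.8 ± 2.19 to BIRC2 at 66.5 ± 10.9 and XIAP at 65.0 ± 6.93. CXCL8 at 48.7 ± 1.56, TNFAIP3 at 37.4 ± 3.74, TRAF1 at 30.6 ± 10.4 and CXCL1 at 22.0 ± 9.13 TPM followed. The libraries of NFKBIA, RELB and BIRC3 overlapped, as did those of BIRC2 and XIAP, of TNFAIP3 and TRAF1, and of TRAF1 and CXCL1, whereas the other neighbours in this order did not overlap. In A549/DDP BIRC2 led at 51.4 ± 2.92 TPM, before NFKBIA at 41.8 ± 8.30, NFKB2 at 34.4 ± 16.0 and XIAP at 17.7 ± 10.2. Of these, NFKB2 overlapped with both NFKBIA and XIAP. BIRC3 at 2.21 ± 0.361 TPM came after TNFAIP3 at 5.32, RELB at 3.98 and TRAF1 at 3.05 and before CXCL8 at 1.83 and CXCL1 at 1.66. The libraries of RELB (6.21 and 1.76 TPM), CXCL8 (2.59 and 1.07) and CXCL1 (0.96 and 2.35) overlapped with those of BIRC3 (1.95 and 2.46). The place of BIRC3 among these genes is therefore open. Among the inhibitors of apoptosis, BIRC3 was thus above BIRC2 and XIAP in every A549 library and below both in every A549/DDP library.
Counts and TPM gave different sizes for BIRC2 and XIAP. The TPM of BIRC2 was 74.2 and 58.8 in A549 and 49.3 and 53.4 in A549/DDP, a log2 difference of -0.37 (pseudocount 1, which lessens the difference of low genes) where counts gave -1.43. Its effective length, which weights its transcripts by their estimated use, was 2481 and 2480 bases in A549 and 1005 and 1384 bases in A549/DDP. For XIAP the TPM difference was larger, -1.82 where counts gave -0.82, and its effective length was 2179 and 2384 bases in A549 and 3176 and 8459 bases in A549/DDP. Whether the lines used different transcripts was not tested. For the other 8 genes the TPM difference lay between -1.40 for NFKBIA and -4.84 for BIRC3.

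**Figure D2:**
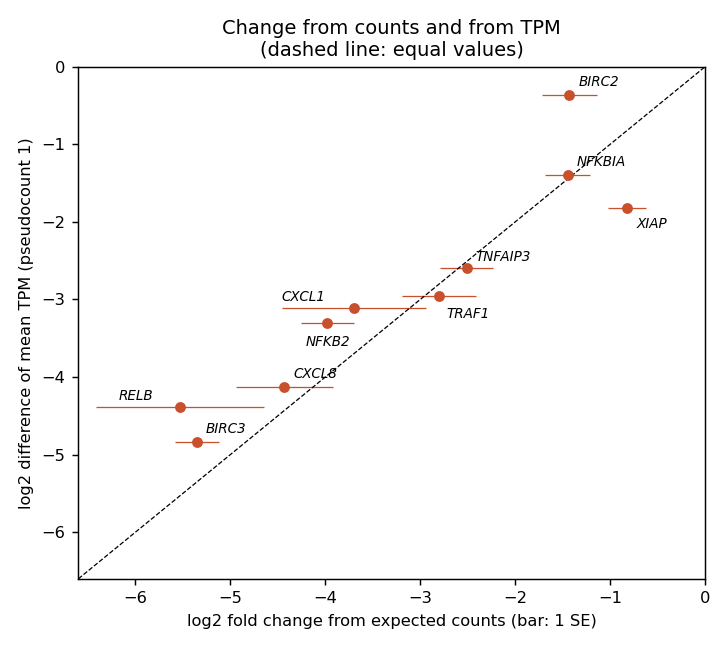
Log2 fold change of the 10 genes from expected counts (x axis, bar 1 SE) beside the log2 difference of their mean TPM with a pseudocount of 1 (y axis), A549/DDP minus A549, with the line of equal values dashed. BIRC2 lies above the line at -0.37 in TPM and XIAP below it at -1.82, and the other genes lie near the line or above it.

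The other genes of the pathway were read from 3 lists taken from textbook knowledge, and these genes were tested. The lists were drawn up with earlier results of these data known, which limits the weight of their tests. The first held 17 other IAPs and IAP-linked apoptosis genes. Of its 15 tested genes, 2 rose and 3 fell, with a median log2 fold change of 0.30. MLKL, the executioner of necroptosis, rose from 15.1 and 16.1 CPM to 81.1 and 55.1 CPM (log2 fold change 2.13, SE 0.28, adjusted p = 0.00868). RIPK1, the kinase on which cIAPs place ubiquitin, rose by 1.04 on the log2 scale (adjusted p = 0.0417). CFLAR, an inhibitor of caspase-8 and itself an NF-κB target, fell from 288 and 219 CPM to 115 and 78.2 CPM (log2 fold change -1.39, adjusted p = 0.0200). BIRC5, the mitotic IAP survivin, changed by -1.34 (adjusted p = 0.0110) and BIRC6, a very large IAP, by -0.72 (adjusted p = 0.0456). The calls of RIPK1 and BIRC6 were close to the threshold. RIPK1 lost its call without A549 replicate 1 (adjusted p = 0.0668) or without either A549/DDP library (0.0987 and 0.13), BIRC6 without either A549/DDP library (0.166 and 0.216), and CFLAR without A549/DDP replicate 2 (0.0616). Against the second A549 pair, 3 genes of the list rose, none fell and BIRC6 turned to 0.69 on the log2 scale (adjusted p = 0.0797). In that fit 2371 of all 13815 tested genes rose and 1387 fell, and the median log2 fold change was 0.80.

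Of 32 other NF-κB subunit, inhibitor and signalling genes, all tested, 2 rose and 10 fell, with a median log2 fold change of -0.14. MAP3K14, which encodes NIK, fell most, from 407 and 567 CPM to 30.4 and 54.9 CPM (log2 fold change -3.51, SE 0.35, adjusted p = 0.00407). NFKBIE, another IκB gene, fell from 38.4 and 34.6 CPM to 5.77 and 6.19 CPM (log2 fold change -2.61, adjusted p = 0.00732). TNFRSF12A, the receptor of the cytokine TWEAK, fell from 772 and 405 CPM to 100 and 108 CPM (log2 fold change -2.50, adjusted p = 0.00783). NFKB1, the subunit gene of the canonical pathway, fell from 140 and 127 CPM to 37.5 and 38.2 CPM (log2 fold change -1.82, adjusted p = 0.00434). TNFRSF1A, the main TNF receptor, rose from 186 and 208 CPM to 456 and 399 CPM (log2 fold change 1.12, adjusted p = 0.0110), and BCL3, an IκB-like nuclear cofactor, rose by 0.96 on the log2 scale (adjusted p = 0.0377). TNFRSF1A lost its call without A549/DDP replicate 1 (adjusted p = 0.0623), and BCL3 without either A549/DDP library (0.176 and 0.0532). Against the second A549 pair, where rises were the more common call over all genes, 7 genes of this list rose and 2 fell. MAP3K14 (adjusted p = 0.219), NFKBIE (0.525), NFKB1 (0.423) and BCL3 (0.238) no longer passed there. RELA, the canonical transactivating subunit and named here after its value was seen, had 129 and 106 CPM in A549 and 100 and 108 CPM in A549/DDP and did not pass (log2 fold change -0.18, adjusted p = 0.594).
Of 27 other NF-κB response genes, 20 were tested, of which 7 fell and none rose, with a median log2 fold change of -1.74. BCL2A1, an antiapoptotic BCL2 relative, had 158 and 277 counts in A549 and none in either A549/DDP library, at least 137-fold lower against a floor of 3 counts over the group. CCL2, a monocyte chemokine, had 290 and 306 counts in A549 and 3 and 1 in A549/DDP, a ratio of 141 with a 95% counting interval of 54.7 to 518. Both are among the 7, but they passed the filter on low counts through A549 only, so a fall was the one direction open to them. With at least 10 counts needed in every library, neither was tested, and 6 genes of the list fell. GADD45B, a stress-response gene, fell from 776 and 395 CPM to 71.8 and 44.3 CPM (log2 fold change -3.33, adjusted p = 0.00682), and CXCL2 from 17.7 and 22.5 CPM to 3.31 and 4.24 CPM (log2 fold change -2.41, adjusted p = 0.0211). CXCL2 lost its call without A549 replicate 2 (adjusted p = 0.0534). Against the second A549 pair, where rises were the more common call over all genes, 7 genes of the list fell and 1 rose.

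**Figure D3:**
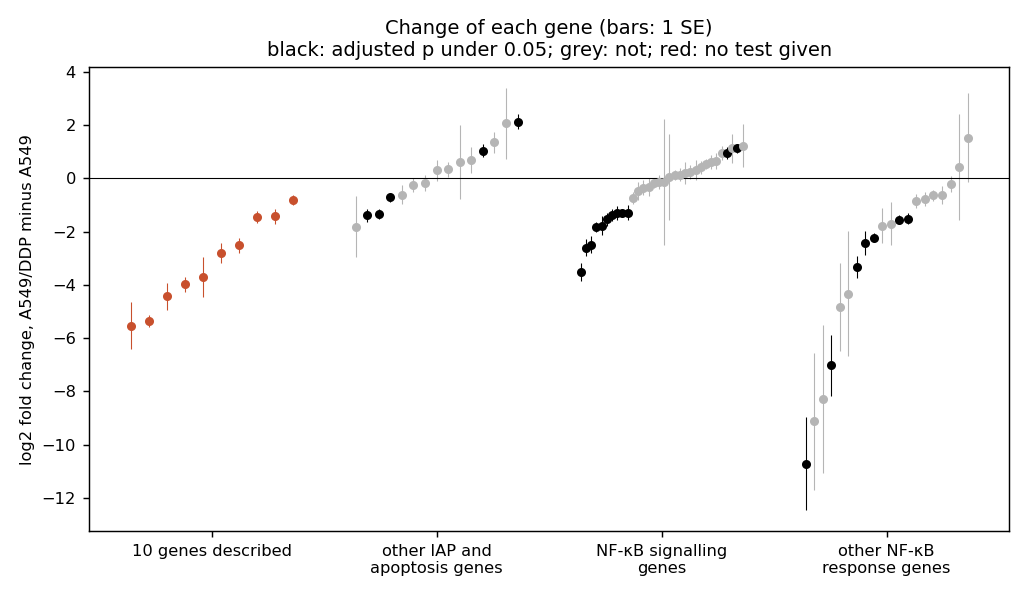
Log2 fold change (A549/DDP minus A549, y axis, bar 1 SE) of the 10 genes, in red and without a test, and of the tested genes of the 3 pathway lists, black where the adjusted p was under 0.05 and grey where it was not. In the response list 7 genes passed, all lower, of which BCL2A1 and CCL2 passed the filter on low counts through A549 only. The other lists hold called genes on both sides of 0.

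By position, BIRC3 and BIRC2 were set beside the other tested genes within 500 kb. Of 6 such genes, 1 passed the test, TMEM123, which lies on the far side of BIRC2 and is named after its value was seen, at 295 and 245 CPM in A549 and 155 and 162 CPM in A549/DDP (log2 fold change -0.77, SE 0.17, adjusted p = 0.0362). YAP1, the nearest tested gene on the other side and likewise named after its value was seen, had 126 and 94.1 CPM in A549 and 82.6 and 98.6 CPM in A549/DDP (adjusted p = 0.452).
Likeness to BIRC3 was measured as the Euclidean distance of log2(CPM + 1), centred for each gene, over the 4 inputs, among 11348 genes with a mean of at least 5 CPM. The nearest were ULBP1, a ligand of the receptor NKG2D, at a distance of 0.27, CCN2, a matricellular protein and YAP target, at 0.37, and MAFF, a small MAF transcription factor, at 0.42. ULBP1 had 36.1 and 30.9 CPM in A549 and 0.101 and 0 CPM in A549/DDP, so the pseudocount of 1 bears on its distance. CCN2 had 498 and 339 CPM in A549 and 12.2 and 10.1 CPM in A549/DDP, and MAFF 179 and 105 CPM against 1.96 and 2.47 CPM. With 4 libraries, such a distance mostly ranks genes by the size of the gap between the lines.

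The second pair of A549 inputs may belong to another experiment, since the study also describes inputs of RIP-seq, and it is set beside the first pair only by its A549 label. These libraries were shallow, with 855034 and 982036 counts, of which 75.2% and 73.9% were mitochondrial, so CPM was taken outside mitochondrial genes, over 211799 and 256064 counts. They also stood apart in makeup, since 2297 genes at 100 CPM or more in the first pair had a median log2 difference of -1.77 (quartiles -2.43 and -1.05) from the first pair to the second.
On this scale BIRC3 had 241 CPM (95% Poisson interval 179 to 317, 51 counts) and 254 CPM (196 to 324, 65 counts) in the second pair. That is near the 294 and 262 CPM of the first pair and far above the 6.54 and 7.69 CPM of A549/DDP. CXCL8 had 94.4 and 102 CPM, above the 38.2 and 32.8 CPM of the first pair. NFKBIA, at 89.7 and 152 CPM, and CXCL1, at 18.9 and 31.2 CPM, also lay above both A549/DDP libraries. For these 4 genes the interval of the pooled count excluded both A549/DDP values.
NFKB2 and RELB went the other way. NFKB2 had 51.9 and 58.6 CPM in the second pair, against 567 and 444 CPM in the first pair and 27.5 and 39.9 CPM in A549/DDP. RELB had 4.72 and 19.5 CPM from 1 and 5 counts, against 157 and 98.8 CPM in the first pair, and TRAF1 had 14.2 and 7.81 CPM, against 13.3 and 10.3 CPM in A549/DDP. TNFAIP3, at 28.3 and 15.6 CPM from 6 and 4 counts, lay between the lines. The pooled intervals were 10.2 to 39.3 CPM for TNFAIP3, 36.3 to 81.4 for NFKB2, 4.71 to 27.9 for RELB and 3.47 to 24.9 for TRAF1. Each of them held the higher A549/DDP value of its gene. Relative to the other well-counted genes, the difference between the A549 pairs was lower in 91.4% of them than for BIRC3 (log2 difference -0.16), but in 6.8% than for NFKB2 (-3.16) and in 5.7% than for RELB (-3.22).
BIRC2 had 94.4 and 43.0 CPM and XIAP 89.7 and 31.2 CPM in the second pair, with pooled intervals of 45.0 to 94.0 and 38.0 to 84.0 CPM that reached down to A549/DDP. These intervals cover counting error only. The second pair was also set in an edgeR fit in place of the first pair, where the median of all genes moved to 0.80. The log2 fold change was -6.11 for BIRC3, -6.83 for CXCL8, -5.57 for CXCL1, -3.08 for RELB and -2.93 for NFKBIA. It was -2.04 for TNFAIP3, -1.71 for NFKB2, -1.70 for BIRC2, -1.06 for XIAP and -0.86 for TRAF1. All 10 remained below 0 in this fit. Among the 3758 of 13815 genes past its threshold were 7 of the 10, without XIAP, TRAF1 and RELB. In pooled CPM outside mitochondrial genes, TRAF1 had 10.7 in the second pair beside a mean of 11.8 in A549/DDP, and XIAP 57.7 beside 55.7. On that scale TRAF1 was slightly higher in A549/DDP and XIAP near level, so the values of this fit depend on its scaling.

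**Figure D4:**
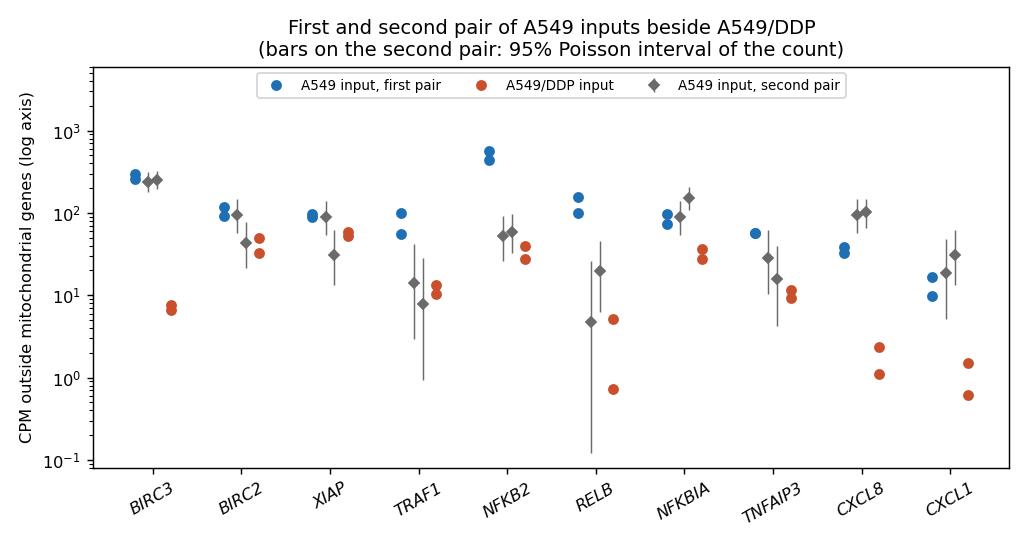
CPM outside mitochondrial genes (log axis) of the 10 genes in the first A549 pair (blue), the second A549 pair (grey, with 95% Poisson intervals) and the A549/DDP inputs (red). BIRC3, CXCL8, CXCL1 and NFKBIA of the second pair stay above A549/DDP, whereas TRAF1, NFKB2 and RELB of the second pair lie near it.

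The m6A-seq libraries were deposited as lists of called peaks, 26320 and 14576 in A549 and 27244 and 10661 in A549/DDP, with a p-value for each peak and no read counts, so their depth is unknown. The lists held 55 peaks in 8 of the 10 genes, each on the strand of its gene, and these merged into 29 regions where exon blocks shared at least 1 base. In A549, 7 of the 10 genes had a peak in replicate 1 and 7 in replicate 2, beside 43.7% and 30.6% of all tested genes. In A549/DDP, 3 and 1 of the 10 had one, beside 40.7% and 22.2% of all tested genes. A peak in both A549 libraries was listed for 6 of the 10 (27.1% of all tested genes), in both A549/DDP libraries for NFKBIA only (19.5% of all tested genes). These shares differed with RNA level. Of the 2356 genes at 100 CPM or more in A549, 44.2% had a peak in both A549 libraries. Of 3143 genes at 25 to 60 CPM in A549/DDP, where the means of BIRC2, XIAP, NFKBIA and NFKB2 lay, 63.0% had a peak in either A549/DDP library.
BIRC3, TRAF1, RELB and TNFAIP3 had peaks in both A549 libraries but in none of A549/DDP, a pattern of 4.62% of all tested genes. Their RNA in A549/DDP was 11.6 CPM or less on average, and of the 7917 genes with under 15 CPM there, 18.5% had a peak in either A549/DDP library. Of genes with peaks in both A549 libraries, 17.1% had none in A549/DDP, but 56.6% of the 297 that were lower by 2 or more on the log2 scale. The lower RNA and a change of m6A cannot be told apart in these 4 genes.
In BIRC3 the shared region was chr11:102324407-102325303, 6923 bases into the gene. It was called as 1 peak of 897 bases in replicate 1 (peak p-value 3.6e-06) and as a peak of 350 and one of 299 bases in replicate 2 (peak p-value 3e-05 for each). In RELB the stronger shared region, chr19:45034476-45037999, ended 193 bases before the end of the gene (peak p-values 0.00027 and 4.8e-07). TRAF1 had 3 regions in both A549 libraries, of which chr9:120902493-120903293 and chr9:120903443-120909283 lay toward the end of the gene and covered 801 and 1850 bases. TNFAIP3 also had 3, of which chr6:137881480-137882074 ended 1238 bases before the end of the gene (peak p-values 0.0052 and 2.5e-05).
NFKBIA was the one gene with peaks in all 4 libraries. Its region chr14:35401808-35402733 was shared by all 4. The region chr14:35404452-35404700, whose near edge lay 49 bases from the start, was called in both A549 libraries (deposited p-values 0.013 and 3.8e-05) but in none of A549/DDP. The region chr14:35403234-35403583 was called in both A549/DDP libraries (deposited p-values 0.017 and 0.016) but in none of A549. The highest p-values in these A549/DDP lists were 0.03 and 0.016, and without read counts in the lists this difference was not tested.
BIRC2 and XIAP, which had the highest mean CPM of the 10 genes in A549/DDP, had A549/DDP peaks in replicate 1 alone. BIRC2 had 3 peaks in each A549 library, 6 in A549/DDP replicate 1 and none in replicate 2. In BIRC2 the regions chr11:102349728-102362765 and chr11:102377542-102378122 were shared by the A549 libraries and A549/DDP replicate 1. Its region chr11:102347261-102347460, 47 bases from the start, was called in both A549 libraries but in none of A549/DDP, as was the region near the start of NFKBIA. XIAP had none in A549 replicate 1, 1 in A549 replicate 2, 8 in A549/DDP replicate 1 and none in replicate 2, and 7 of its 8 regions were listed in that 1 library, the longest list of the 4.
CXCL1 had 1 peak, in A549 replicate 1 (peak p-value 0.00015). NFKB2 and CXCL8 had none in any list. For NFKB2, the most abundant of the genes in A549, this was the less usual state, since 15.7% of the 2356 genes at 100 CPM or more in A549 had no peak in any of the 4 lists and 44.2% had one in both A549 lists.
The peak counts depended on the threshold. When the deposited p-value had to be 1e-05 or lower, or the lists were cut to equal size, none of the 10 genes had a peak in both libraries of a line.

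**Figure D5:**
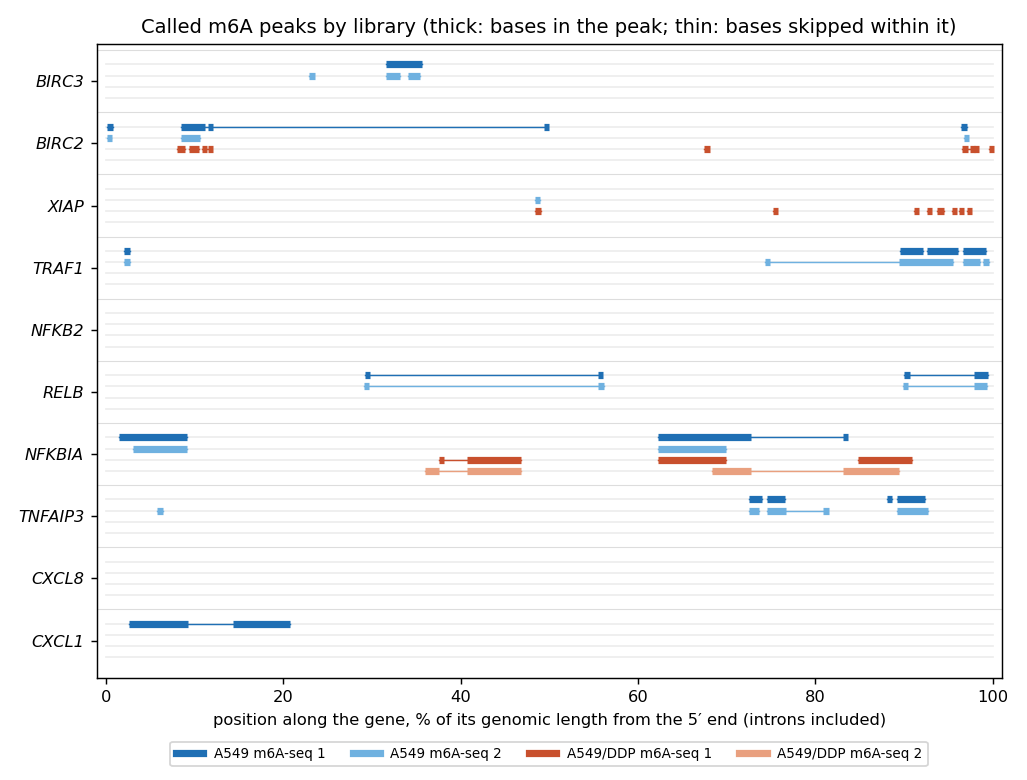
Called m6A peaks of the 10 genes in each m6A-seq library, by position along the gene in percent of its genomic length (x axis), with bases in the peak as thick and skipped bases as thin lines. BIRC3, TRAF1, RELB and TNFAIP3 carry blue A549 bars only, NFKBIA carries bars of all 4 libraries, and NFKB2 and CXCL8 carry none.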

How the data were processed

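Expression was taken from the input libraries and m6A from the m6A-seq libraries of A549 and A549/DDP cells, grouped by their labels. The libraries were strand-specific (dUTP) and paired-end. The submitters' processing notes name STAR, RSEM, bedtools and hg38 without roles or versions, and the peak caller is not given in the sources used here. The authors deposited expected counts per gene, which are estimates and not normalized, and TPM, scaled by the authors for effective length and library size. For each m6A-seq library the authors deposited called peaks with a p-value each, raw or adjusted not stated. The labels exchange the replicate numbers of the A549 m6A-seq libraries relative to the names of the deposited lists, and the labels were followed.

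Rounded expected counts of the 4 first inputs went through filterByExpr and TMM scaling into the quasi-likelihood test of edgeR 4.0.16 (R 4.3.3), with Benjamini-Hochberg adjustment over 16406 genes and a threshold of 0.05. SE is the log2 fold change over the square root of edgeR's F, and CPM is TMM-normalized. Replicates of a line differed by more than sampling noise (chi-square per degree of freedom 83.1 and 53.5). Poisson intervals are exact at 95%, and they and the floor of 3 counts cover counting error only. Symbols were matched for 56948 of 58037 identifiers, and 26 of 27 response genes were found. Coordinates count from 1. Exon and UTR annotation was not used here. No column was left unassigned.

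The 10 genes and the lists were chosen with earlier results of these data known. Named beside the 10 genes were the called genes of each list, at most 4 in each direction by size of change, and the 3 genes nearest to BIRC3, and other names are marked as chosen after their values were seen. Alternatives were the replicate block, DESeq2 1.42.0, other filters and scalings, no mitochondrial genes, the second A549 pair, each library left out, and stricter peaks. Python 3.11.15 with pandas 2.3.3 and matplotlib 3.10.9 was used.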

Additional observations from a re-analysis of the deposited data

How the results depend on the processing

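The 10 genes were chosen on this contrast, and each stayed lower in A549/DDP in all 13 other fits, which reuse its libraries. Their directions and calls in these fits are thus a description without weight as support. In CPM outside mitochondrial genes, however, TRAF1 was not lower in A549/DDP than in the pooled second A549 pair. The replicate numbers do not pair the libraries by their labels, and same-numbered deviations had a correlation of 0.021. With the replicate number as a block, 1903 of 16406 tested genes were lower and 1633 higher, and the 10 genes were among the lower ones. The number of lower genes was 1313 in the fit reported and became 2247 with DESeq2, 2174 with no filter beyond 1 count and 342 with both A549 pairs. The number of higher genes was 1124 and became 1987, 1836 and 335 under those settings, 1746 with at least 10 counts in every library and 2371 with the second A549 pair, where lower genes made up 36.9% of the calls instead of 53.9%. Without 1 library, lower genes ran from 1164 to 2078 and higher genes from 788 to 1731, and 8 to 9 of the 10 genes passed. With the second A549 pair 7 of the 10 passed, beside 3758 of 13815 genes tested in that fit. With both pairs 6 of the 10 passed, beside 677 of 16517 genes. Called genes of the other IAP and apoptosis list went from 5 to 3 with the second A549 pair, to 1 with both pairs, and to 3 to 5 without 1 library. Those of the signalling list went to 1 with both pairs and to 8 to 16 without 1 library, and those of the response list to 11 with no filter and to 7 to 10 without 1 library. The cause of these shifts was not tested. BIRC6 reversed with the second A549 pair (0.69). The 6 genes with a peak in both A549 libraries became 0, and the 1 in both A549/DDP libraries 0, with p at or below 1e-05 and with lists of equal size. With single libraries these counts were 7 and 7 in A549 and 1 and 3 in A549/DDP. Half-peak overlap gave 30 regions in place of 29. The results are limited by 2 libraries a line, by TPM that depends on transcript assignment and by the low depth of the second A549 pair.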
